A study of Macaca mulatta with 11 samples.

Results

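The genes described here are the translation factors and aminoacyl-tRNA synthetases of rhesus monkey cumulus cells, which surround the oocyte in the follicle. They were chosen by symbol alone: the initiation factors of the EIF1 to EIF6 families, the elongation factors of the EEF1 and EEF2 families with the enzymes named after them, the release factor gene ETF1, and the synthetase genes of cytosol and mitochondria. Of 14132 genes with a symbol of their own on the array, 69 matched, each measured by its brightest probe set. EEF1A1, the 70th, was carried only by control probe sets of the array maker and was not tested. All 69 had a mean above the median probe set of the array, and 37 had more than 1 tested probe set.

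The samples fall into 3 groups, all from animals given follicle-stimulating hormone (FSH). The 4 PM samples were taken from immature complexes before maturation, after FSH and nothing more. The 3 IVM samples were taken after FSH and maturation of the complexes in culture. The 4 VVM samples were taken after FSH and maturation in the animal, triggered with human chorionic gonadotropin (hCG). Each sample of 50 ng total RNA was amplified and hybridised to 1 Affymetrix Rhesus array. All levels below are log2 of the deposited RMA intensity, and differences are on that scale. A gene was called when the adjusted p of the limma fit over all probe sets was under 0.05. The labels do not state whether a group's samples are from different animals, so the p-values reflect the spread among these samples alone, and the small number of arrays limits the precision.

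Protein synthesis starts when eIF2 brings the initiator tRNA to the small ribosomal subunit, the eIF4 complex recruits the capped message, and eIF3 holds these parts together. Elongation factors then deliver charged tRNAs and move the ribosome along, and release factors end the chain. Synthetases charge each tRNA with its amino acid, in the cytosol and, through a mostly separate set of enzymes, in mitochondria. When eIF2 kinases sense stress or a lack of amino acids, initiation slows while translation of the transcription factor ATF4 rises, and several cytosolic synthetase genes are known targets of ATF4.

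Array medians lay between 5.34 and 5.53, and all 11 arrays correlated best with their own group. Of 17 cumulus and granulosa marker genes, 15 were measured, with a mean level of 8.86 ± 0.05, 8.98 ± 0.07 and 8.73 ± 0.17 in PM, IVM and VVM (SD, n = 4, 3 and 4). These means cover changes in both directions. Between IVM and VVM, 6 were called higher and 1 lower (46.7%, all genes: 16.7%). From PM to IVM, 4 rose and 7 fell (73.3%, all genes: 45.9%). From PM to VVM, 4 rose and 9 fell (86.7%, all genes: 39.8%), with differences from -3.48 to 6.69. Some arrays stood apart. In PM 1 the mean of the 11 measured oocyte markers was 6.76, against 4.78 to 4.83 in the other PM arrays. The mean of the 10 measured leukocyte markers was 7.23 in VVM 2 and 7.92 in VVM 3, against 5.68 to 6.06 elsewhere. Of the 10, 7 were called higher in VVM than in PM and 2 lower (90%, all genes: 39.8%). Every VVM array lay above every PM array for 8 of the 10 (all genes: 2938 of 14132). TYROBP was at 6.51 and 6.25 in VVM 1 and VVM 4, against 4.51 to 5.11 in the PM and IVM arrays. Fits without VVM 2 and VVM 3 thus keep VVM arrays with part of this signal. Of 6 measured theca and stroma markers, 5 were called higher in IVM than in PM and none lower (83.3%, all genes: 45.9%). Their mean was 6.62 in IVM 1, against 5.23 to 6.15 elsewhere. The mean of the 5 measured epithelial markers was 7.03 in IVM 2 and 6.87 in IVM 3, against 5.76 to 6.16 elsewhere. The bacterial hybridization controls also differed, at 9.55 to 9.98 in PM, 11.14 to 11.94 in IVM and 10.08 to 11.04 in VVM. These 3 ranges did not overlap, so fits with these controls as a covariate cannot fully separate them from the groups. The excess of 3' over 5' signal in the maker's control transcripts was 3.20 to 3.45, 3.67 to 4.36 and 3.44 to 3.90 in the same order. The part of these differences in the results below was not tested beyond the fits that are given beside them. Those fits left out PM 1, VVM 2 and VVM 3 together or single arrays, or used those 2 controls as covariates.

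The comparison of culture with in vivo maturation was the main one of the series, with PM as the starting point of both. Between IVM and VVM, 21 of the 69 genes were called: 19 were higher in IVM and 2 were lower. Over all 14132 genes, 16.7% were called in either direction, 9.06% higher and 7.63% lower. The median difference was 0.39 over the 69 and 0.08 over all genes. Since the 69 were all brighter than the median probe set, they are better read against the genes of that kind, of which 21.5% were called. Calls of at least 2-fold numbered 6, against 7.98% of all genes. The arrays of IVM and VVM did not overlap for 29 of the 69 (42.0%), 24 with IVM above and 5 with IVM below, against 28.6% of all genes. In RNA pooled from many cells, fewer cells of a type and less RNA per cell cannot be told apart. Without PM 1, VVM 2 and VVM 3, 9 of the 69 were called, 7 higher and 2 lower. With the hybridization controls as a covariate 5 were called, all higher, and 30 had an unadjusted p under 0.05 in limma. Over all 14132 genes that fit called 370, against 2358 in the main fit.

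The same genes were split from PM to IVM, with 16 called higher and 13 lower, 29 in all or 42.0%. The background was 45.9% of all genes (25.0% higher and 20.9% lower) and 52.2% of the brighter genes, so the share of calls was no higher than in either. Calls of at least 2-fold numbered 13 (all genes: 17.9%), and arrays did not overlap for 26 (37.7%, all genes: 50.3%). The split moved with the scaling. It was 10 higher and 17 lower with each array centred on its median, 23 and 10 after another quantile normalization and 21 and 11 after cyclic loess. Centring lowered the median difference of all genes by 0.15 in this comparison and by 0.11 from PM to VVM, and cyclic loess lowered it by 0.11 in this one. With the 3' to 5' excess as a covariate 10 were called. With the hybridization controls as a covariate none was called by limma, and 11 had an unadjusted p under 0.05. Over all 14132 genes these fits called 2442 and 3, against 6492 in the main fit. The absence of calls under the hybridization controls thus holds for nearly the whole array and is not particular to the 69.

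Falls outnumbered rises from PM to VVM. Of the 69, 25 were called lower and 7 higher, or 46.4% in all. Over all genes 39.8% were called, 21.8% lower and 18.0% higher. Of the brighter genes 47.3% were called, so the total share of calls lay near the background. The median difference was -0.36 over the 69 and 0.04 over all genes. Calls of at least 2-fold numbered 5 (all genes: 17.0%), and arrays did not overlap for 29 (42.0%, all genes: 41.9%). Falls also outnumbered rises with centred arrays (29 and 4), after quantile normalization (15 and 9) and after cyclic loess (16 and 8). Without PM 1, VVM 2 and VVM 3 there were 11 calls, 10 of them falls. The count also fell to 21 without PM 4 and to 20 without VVM 3. With the 3' to 5' excess as a covariate 10 were called, and with the hybridization controls 4, all of them falls. Over all genes these fits called 3298 and 1664, against 5622 in the main fit. Both comparisons with PM use the same PM arrays, so they are not independent of each other.

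VVM had the lowest of the 3 group means for 39 of the 69 genes (56.5%), against 29.6% of all genes. IVM had the highest mean for 31 (44.9%), against 42.8% of all genes. Among the IVM arrays, IVM 3 gave the highest value for 47 of the 69 genes (68.1%), and for 36.5% of all genes. Leaving it out changed the calls from 21 to 16 between IVM and VVM, and from 29 to 32 between IVM and PM, with 13 higher and 19 lower. In all, 49 genes were called in at least 1 comparison, 20 in none and 3 in all of them, VARS1, EEF2KMT and SARS1.

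**Figure D1:**
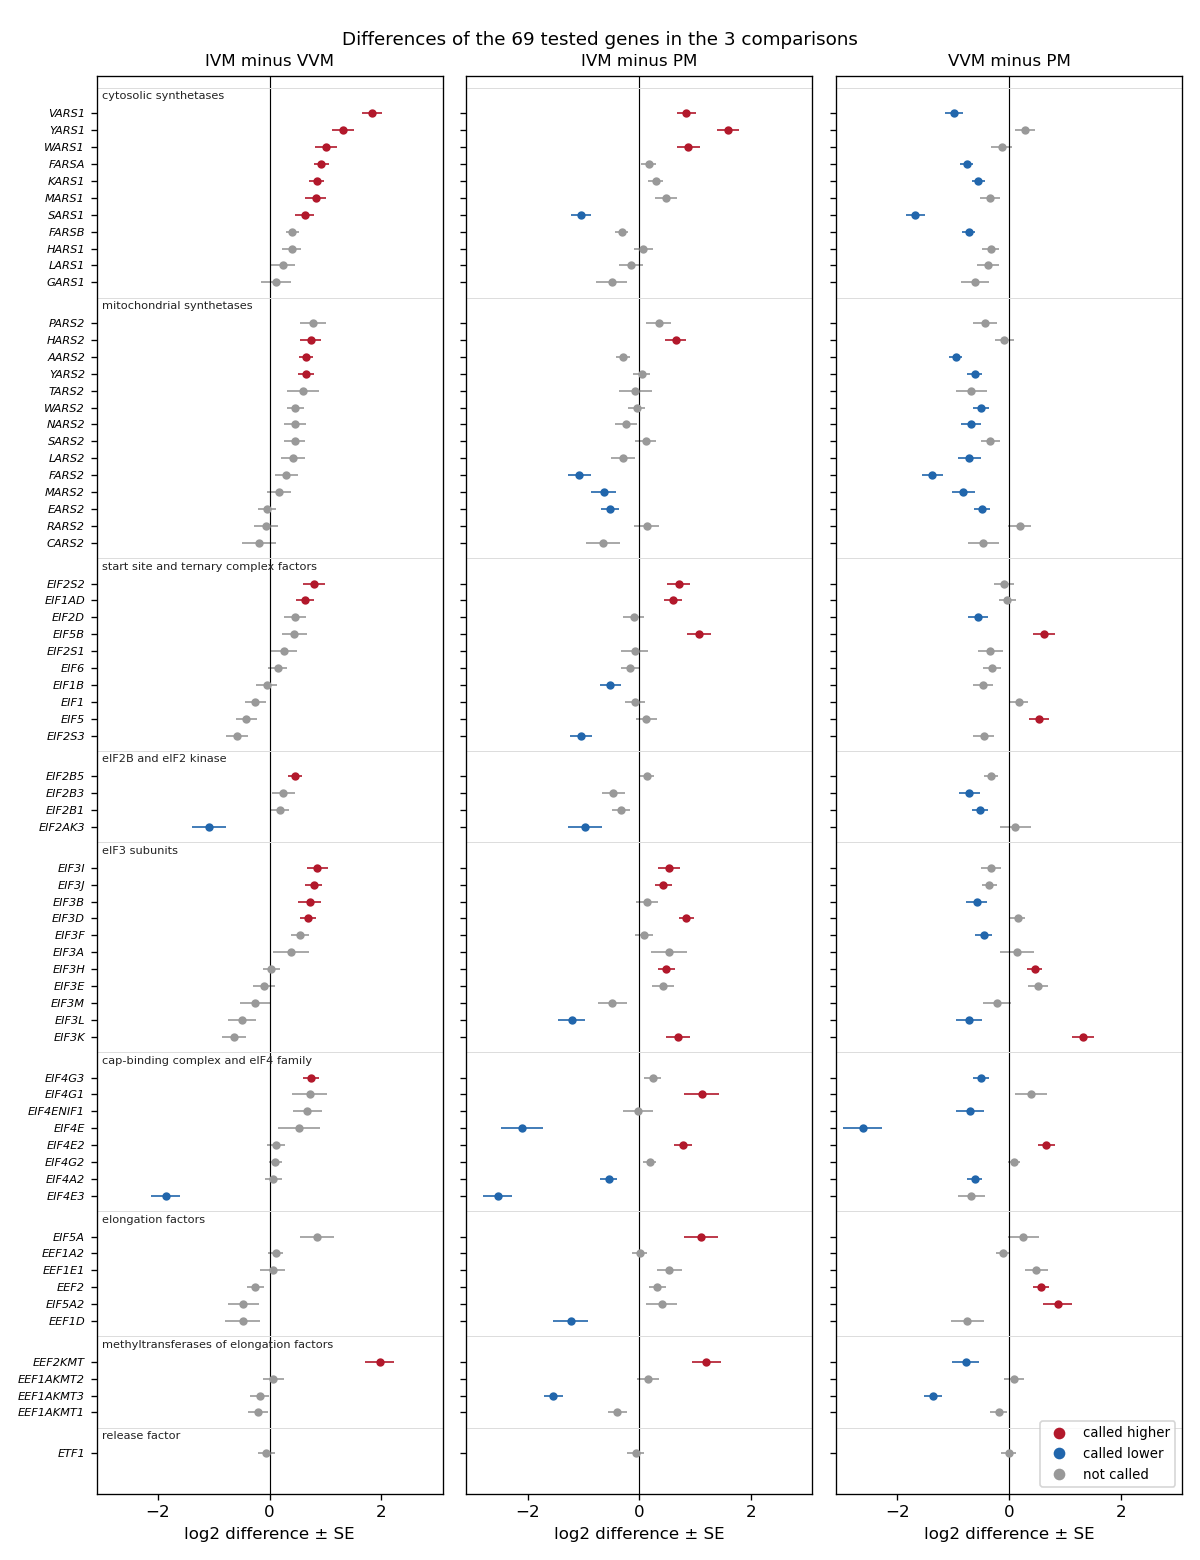
Log2 differences of the 69 genes, with bars of 1 SE of the limma fit, ordered by role, for IVM minus VVM, IVM minus PM and VVM minus PM in turn. Coloured points were called (adjusted p under 0.05) and grey ones were not. The cytosolic synthetases all lie to the right of 0 in the comparison of IVM with VVM.

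The cytosolic synthetases were higher in IVM than in VVM for 7 of the 11 measured: VARS1, YARS1, WARS1, FARSA, KARS1, MARS1 and SARS1. None was lower, all 11 differences were above 0, and their median was 0.82. From PM to VVM, 5 fell (VARS1, SARS1, FARSA, FARSB and KARS1) and none rose. From PM to IVM, 3 rose (YARS1, WARS1 and VARS1) and 1, SARS1, fell. The shares called were 63.6%, 45.5% and 36.4% in that order, against 16.7%, 39.8% and 45.9% of all genes. Of the brighter genes 21.5%, 47.3% and 52.2% were called, so neither count against PM exceeded that background. VVM had the lowest group mean for 10 of the 11, with YARS1 the exception. The 11 were chosen as a group with these results known, so the counts describe them and are no independent evidence.

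VARS1, which charges tRNA with valine, was at 8.05, 8.24, 7.88 and 8.12 in the PM arrays, 8.48, 9.22 and 9.04 in IVM and 6.95, 7.31, 7.05 and 7.00 in VVM. The groups did not overlap: IVM lay above PM, and VVM below it. The difference between IVM and VVM was 1.83 ± 0.17 (SE), a fold of 3.57 (adjusted p = 0.000189). It rose by 0.84 ± 0.17 from PM to IVM (adjusted p = 0.00332) and fell by 0.99 ± 0.16 from PM to VVM (adjusted p = 0.000881). Its 2 probe sets had differences of the same sign in each comparison.

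YARS1, the tyrosine enzyme, was at 8.93, 9.39, 9.31 and 9.16 in PM, 10.41, 10.81 and 11.14 in IVM and 9.63, 9.35, 9.76 and 9.16 in VVM. Here the IVM arrays stood above all others and the other groups overlapped. The rise was 1.59 ± 0.20 from PM to IVM (adjusted p = 0.000157), and IVM was above VVM by 1.31 ± 0.20 (adjusted p = 0.00218). The difference from PM to VVM was 0.28 ± 0.18, which did not pass (adjusted p = 0.265). Another, dimmer YARS1 probe set was called in neither comparison with IVM, at 0.23 for IVM minus VVM and 0.38 for IVM minus PM.

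WARS1, the tryptophan enzyme, was at 8.78, 8.98, 8.68 and 9.00 in PM, 9.41, 9.57 and 10.24 in IVM and 8.40, 8.96, 8.73 and 8.82 in VVM, with IVM again above all other arrays. IVM exceeded VVM by 1.01 ± 0.20 (adjusted p = 0.00843) and PM by 0.88 ± 0.20 (adjusted p = 0.00563). Its probe sets did not give 1 answer. A second one of nearly the same brightness differed by 0.33 between IVM and VVM (adjusted p = 0.462), and with the mean of the gene's probe sets neither call remained.

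FARSA and FARSB encode the subunits of the phenylalanine enzyme. FARSA was at 8.24, 8.39, 8.23 and 8.61 in PM, 8.40, 8.56 and 8.64 in IVM and 7.47, 7.72, 7.72 and 7.52 in VVM. All VVM values lay below all others, by 0.93 ± 0.13 against IVM (adjusted p = 0.00146), while FARSA fell by 0.76 ± 0.12 from PM (adjusted p = 0.000732). Its other probe set differed by 0.29 between IVM and VVM and was not called there, but was also called lower in VVM than in PM. FARSB was at 11.49 ± 0.10 in PM, 11.18 ± 0.18 in IVM and 10.77 ± 0.12 in VVM (SD, n = 4, 3 and 4). It fell by 0.72 ± 0.11 from PM to VVM (adjusted p = 0.000663), and its difference between IVM and VVM, 0.41 ± 0.12, missed the threshold (adjusted p = 0.0519).

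KARS1, the lysine enzyme, was at 12.40, 12.69, 12.49 and 12.80 in PM, 12.75, 12.96 and 12.96 in IVM and 12.26, 12.06, 11.96 and 11.91 in VVM. The VVM arrays lay below the rest without overlap. IVM was above VVM by 0.84 ± 0.13 (adjusted p = 0.00285), and from PM to VVM the gene fell by 0.55 ± 0.12 (adjusted p = 0.0063). All 4 of its probe sets had differences of the same sign between IVM and VVM. MARS1, the methionine enzyme, was at 8.86, 8.99 and 9.66 in IVM and 8.21, 8.50, 8.27 and 8.39 in VVM, and IVM was higher by 0.82 ± 0.19 (adjusted p = 0.0192). Its PM arrays, at 8.66, 8.37, 8.88 and 8.86, overlapped both groups. The other MARS1 probe set differed by 0.25 between IVM and VVM and was not called.

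SARS1, the serine enzyme, was the cytosolic synthetase gene that fell from PM to IVM. It was at 13.25, 13.09, 12.71 and 13.14 in PM, 11.75, 12.10 and 12.14 in IVM and 11.14, 11.53, 11.16 and 11.65 in VVM, so every PM array was above every IVM array and every IVM array above every VVM array. SARS1 fell by 1.68 ± 0.16 from PM to VVM, a fold of 3.2 (adjusted p = 4.14e-05). From PM to IVM it fell by 1.05 ± 0.18 (adjusted p = 0.00104). The difference between IVM and VVM was 0.63 ± 0.18 (adjusted p = 0.0432), and its call ended on leaving out PM 1, PM 2, PM 4, IVM 2, IVM 3, VVM 1, VVM 2 or VVM 3 (differences 0.55 to 0.75 over all fits that left out an array, adjusted p up to 0.139).

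The remaining cytosolic enzymes, for histidine (HARS1), leucine (LARS1) and glycine (GARS1), passed in no comparison. Their differences between IVM and VVM were 0.40, 0.24 and 0.11. GARS1 was at 5.45, 5.51 and 6.57 in the IVM arrays, where IVM 3 stood above the others. Of the synthetases listed as ATF4 targets, 5 of the 7 measured were higher in IVM than in VVM, and of the other cytosolic synthetases 2 of 4. The shares were 71.4% and 50%, against 16.7% of all genes and 21.5% of the brighter ones. The difference between those lists was not tested. Without PM 1, VVM 2 and VVM 3 the 11 cytosolic genes had 5 rises, no falls and a median of 0.80. With the hybridization controls as a covariate there were 3 rises and a median of 0.94.

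**Figure D2:**
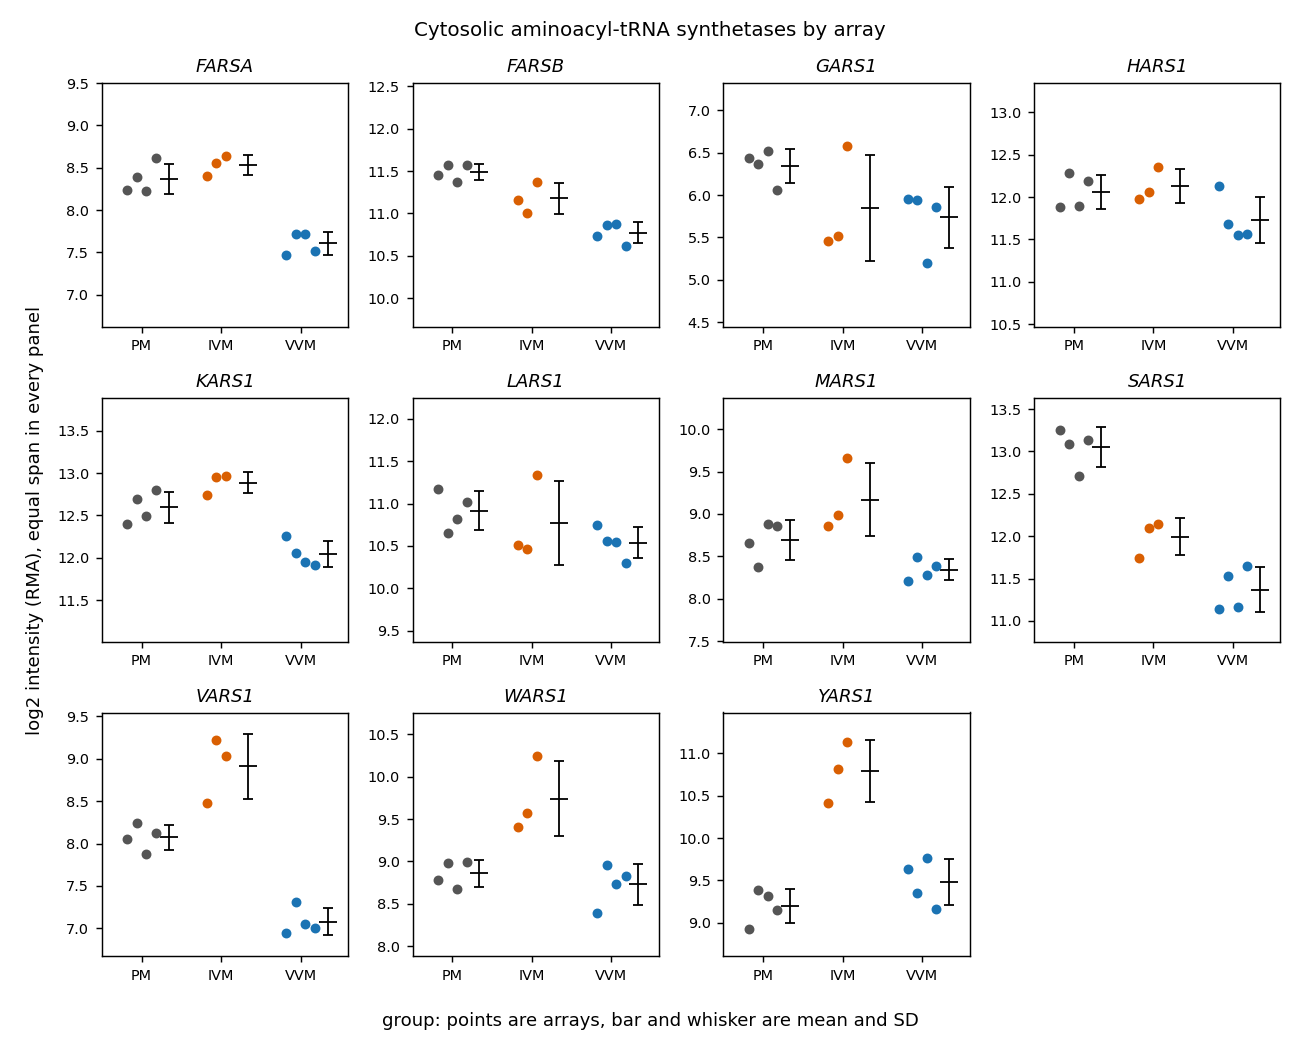
Log2 RMA intensity of the cytosolic synthetase genes on each array, by group (PM, IVM, VVM). Points are arrays, bars and whiskers are the group mean and SD, and the span of the vertical axis is equal in every panel. The VVM points lie below the IVM points without overlap in 8 of the 11 genes (all genes: 2472 of 14132). These are VARS1, YARS1, WARS1, FARSA, FARSB, KARS1, MARS1 and SARS1.

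The mitochondrial synthetases fell from PM to VVM in 8 of 14: FARS2, AARS2, MARS2, LARS2, NARS2, YARS2, WARS2 and EARS2. None rose, and their median difference was -0.56. The change to IVM held 3 falls (FARS2, MARS2 and EARS2) and 1 rise, HARS2. Between IVM and VVM, 3 were higher in IVM (HARS2, AARS2 and YARS2), none was lower, and the median was 0.45. The shares called were 57.1%, 28.6% and 21.4% in that order, against 39.8%, 45.9% and 16.7% of all genes. Of the brighter genes 47.3%, 52.2% and 21.5% were called, so the count between IVM and VVM lay near that background.

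FARS2, the mitochondrial phenylalanine enzyme, was at 10.34, 9.96, 10.42 and 10.63 in PM, 9.11, 9.05 and 9.62 in IVM and 9.32, 8.85, 8.64 and 9.04 in VVM. PM stood above both matured groups, which overlapped. It fell by 1.08 ± 0.21 to IVM (adjusted p = 0.00214) and by 1.38 ± 0.19 to VVM (adjusted p = 0.000327). With the hybridization controls as a covariate, the first of these turned to 0.14.

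AARS2, the mitochondrial alanine enzyme, was at 7.83, 7.72, 7.94 and 8.07 in PM, 7.46, 7.60 and 7.73 in IVM and 6.94, 6.97, 7.08 and 6.75 in VVM. Its VVM arrays lay below all others. It fell by 0.95 ± 0.12 from PM to VVM (adjusted p = 0.00015) and was 0.66 ± 0.13 higher in IVM than in VVM (adjusted p = 0.00675). YARS2, the tyrosine counterpart, was also lowest in VVM: it fell by 0.62 ± 0.14 to VVM (adjusted p = 0.00559) and was 0.66 ± 0.15 higher in IVM (adjusted p = 0.015). The second of these calls was lost without IVM 2 (adjusted p = 0.0516).

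HARS2, the histidine counterpart, was the mitochondrial enzyme that rose in IVM, at 8.82, 8.71 and 8.99 against 8.44, 7.66, 8.24 and 8.42 in PM and 8.18, 7.86, 8.19 and 8.17 in VVM. All 3 IVM arrays were above the rest. The rise from PM was 0.65 ± 0.18 (adjusted p = 0.0167), lost without IVM 3 (adjusted p = 0.0513) and with centred arrays. Against VVM it was 0.74 ± 0.18 (adjusted p = 0.0259), lost without any IVM array or VVM 2 (adjusted p up to 0.0697).

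MARS2, for methionine, fell by 0.82 ± 0.20 to VVM (adjusted p = 0.00987) and by 0.64 ± 0.22 to IVM (adjusted p = 0.0345). The fall to IVM was lost without PM 1, PM 2, PM 3, IVM 1 or IVM 2 (adjusted p up to 0.148). LARS2 (leucine), NARS2 (asparagine) and WARS2 (tryptophan) fell to VVM by 0.71 ± 0.20, 0.69 ± 0.18 and 0.50 ± 0.14, with limma adjusted p of 0.0191, 0.0146 and 0.0199. The call of LARS2 was lost without PM 1, PM 4 or VVM 1 and that of WARS2 without PM 4, VVM 1 or VVM 3 (adjusted p up to 0.0575 and 0.0561). EARS2, the glutamate enzyme, fell by 0.48 ± 0.15 to VVM, but of its 4 probe sets 2 were called lower and 1 higher there. Its fall to IVM was lost without PM 3, IVM 1 or IVM 2 (adjusted p up to 0.0872), and its fall to VVM without PM 1, PM 3, PM 4, VVM 1 or VVM 4 (adjusted p up to 0.0723). The other 5 mitochondrial enzymes, CARS2, PARS2, RARS2, SARS2 and TARS2, passed in no comparison, with differences between -0.67 and 0.78. Without PM 1, VVM 2 and VVM 3 the 14 genes had 2 falls from PM to VVM and a median of -0.62.

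A further list of 24 measured genes of the multi-synthetase complex and of tRNA processing and modification had 8 rises and 1 fall in IVM relative to VVM, 4 rises and 9 falls in IVM relative to PM, and 3 rises and 15 falls in VVM relative to PM. The shares called were 37.5%, 54.2% and 75% in that order, where all genes gave 16.7%, 45.9% and 39.8% and the brighter genes 21.5%, 52.2% and 47.3%. AIMP2, a scaffold of the synthetase complex, was 1.43 ± 0.15 higher in IVM than in VVM (adjusted p = 0.000377). POP1 and RPP40, subunits of RNase P, which trims the 5' end of tRNAs, were higher by 1.76 ± 0.16 and 1.92 ± 0.25, and TSEN15, of the tRNA splicing enzyme, by 1.51 ± 0.22, with limma adjusted p of 0.000178, 0.000996 and 0.00163. The routes differed: from PM, RPP40 and TSEN15 fell by 2.62 ± 0.23 and 2.67 ± 0.20 in VVM and by 0.70 ± 0.25 and 1.16 ± 0.22 in IVM, while POP1 rose by 1.26 ± 0.16 in IVM. AIMP1, another scaffold, rose by 1.45 ± 0.14 in IVM. TSEN54 and the tRNA methyltransferase subunit TRMT6 fell by 1.44 ± 0.18 and 1.32 ± 0.31 in IVM and by 1.65 ± 0.17 and 1.60 ± 0.28 in VVM. The gene called lower in IVM than in VVM was SSB, the La protein that binds new tRNA transcripts, at -1.29 ± 0.15. It was named after its values were seen.

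The list of genes that ATF4 and the integrated stress response are known to raise had 4 of 19 called higher in IVM than in VVM and none lower, 21.1% of the list and near the 16.7% of all genes and 21.5% of the brighter ones. They were ASNS, which makes asparagine, at 4.09 ± 0.60, the cystine transporter gene SLC7A11 at 3.95 ± 0.58, PHGDH, of serine synthesis, at 2.63 ± 0.45 and TRIB3, a pseudokinase, at 1.44 ± 0.20. The limma adjusted p of ASNS was 0.00188, and that of TRIB3 0.00159. In IVM relative to PM, 8 were higher and 2 lower, or 52.6%, near the brighter genes' 52.2% (all genes 45.9%). ASNS rose by 3.41 ± 0.60, SLC7A11 by 4.01 ± 0.58, the transcription factor gene CEBPB by 2.21 ± 0.34 and TRIB3 by 1.91 ± 0.20. In VVM relative to PM, 2 were higher and 5 lower, or 36.8%, close to the 39.8% of all genes (47.3% of the brighter ones). The list's counts are thus near the background in each comparison. CEBPB rose by 2.42 ± 0.31 there too, and PHGDH fell by 1.66 ± 0.41. ATF4 itself, whose activity is set mostly by translation, fell by 0.85 ± 0.21 in IVM and by 0.69 ± 0.19 in VVM (adjusted p = 0.008 and 0.0185 in limma), and its IVM value is given although it lies outside the rule for named genes.

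**Figure D3:**
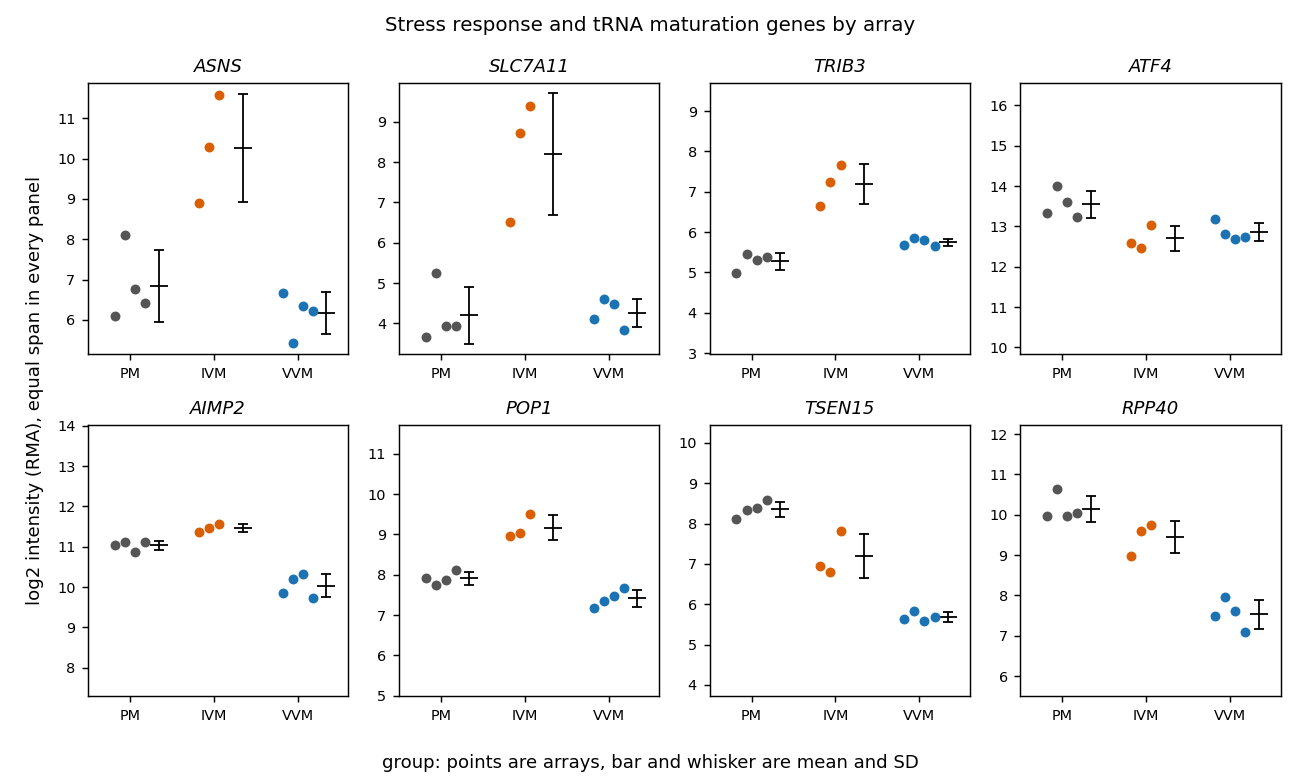
Log2 RMA intensity of ASNS, SLC7A11, TRIB3, ATF4, AIMP2, POP1, TSEN15 and RPP40 on each array, by group. Points are arrays, bars and whiskers are the group mean and SD, and the vertical span is equal in every panel. ASNS and SLC7A11 are highest in IVM, while ATF4 is highest in PM.

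EIF2S1, the alpha subunit that eIF2 kinases phosphorylate, was at 10.26 ± 0.15 in PM, 10.18 ± 0.38 in IVM and 9.93 ± 0.47 in VVM (SD, n = 4, 3 and 4). By this brightest probe set no comparison passed. Its differences were 0.25 ± 0.24 for IVM minus VVM, -0.09 ± 0.24 for IVM minus PM and -0.34 ± 0.23 for VVM minus PM, and their signs turned under other settings. Without VVM 1 its fall to VVM passed the threshold, at -0.57. The 4 probe sets of EIF2S1 disagreed. From PM to VVM, 2 were called higher and 1 lower, from -0.90 to 2.10. From PM to IVM, 1 was called higher and 1 lower, from -1.19 to 0.92. Between IVM and VVM, 1 was called lower, at -1.52.

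EIF2S3, the gamma subunit that binds GTP and the initiator tRNA, was at 8.01, 7.84, 7.95 and 8.17 in PM, 6.88, 6.45 and 7.50 in IVM and 7.57, 7.51, 7.56 and 7.51 in VVM. By this brightest probe set every IVM array was below every PM and VVM array. It fell by 1.05 ± 0.20 from PM to IVM (adjusted p = 0.00203), while the difference from VVM, -0.59 ± 0.20, did not pass (adjusted p = 0.0797). A second EIF2S3 probe set of nearly the same brightness gave another picture. It was called lower than PM in both groups, at -1.30 in IVM and -1.35 in VVM, with 0.06 for IVM minus VVM. EIF2S2, the beta subunit, rose by 0.70 ± 0.20 from PM to IVM (adjusted p = 0.0166) and exceeded VVM by 0.79 ± 0.20 (adjusted p = 0.0262). These calls were lost without IVM 3, in the first case, and without IVM 2, IVM 3, VVM 2, VVM 3 or VVM 4, in the second (adjusted p up to 0.0526 and 0.0831). Its 5 probe sets disagreed: between IVM and VVM, 2 were called higher and 1 lower, from -2.27 to 1.31.

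EIF2AK3, the kinase PERK that senses stress in the endoplasmic reticulum, was lower in IVM than in both other groups. Its arrays read 6.93, 6.29, 7.00 and 7.25 in PM, 6.13, 5.44 and 6.12 in IVM and 7.38, 6.34, 6.81 and 7.39 in VVM. The IVM values lay below all others. It fell by 0.98 ± 0.30 from PM to IVM (adjusted p = 0.0231) and was -1.09 ± 0.30 in IVM minus VVM (adjusted p = 0.0379). The first call was lost without PM 3, PM 4 or IVM 2, and the second without PM 1, PM 3, any IVM array, VVM 1, VVM 3 or VVM 4 (adjusted p up to 0.101 and 0.155). The difference from PM to IVM turned to 0.14 with the hybridization controls as a covariate. The other eIF2 kinase genes, EIF2AK1, EIF2AK2 and EIF2AK4, were not analysed here, since no single-symbol probe set carried them.

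The genes of eIF2B, which reloads eIF2 with GTP, were EIF2B1, EIF2B3 and EIF2B5. EIF2B5, the catalytic subunit, was at 9.28 ± 0.08 in IVM (SD, n = 3) and at 8.83 ± 0.14 in VVM (SD, n = 4), with a difference of 0.45 ± 0.13 (adjusted p = 0.0477). That call held in 1 of the 11 fits that left out an array, the one without VVM 3, with differences of 0.40 to 0.51 and adjusted p up to 0.126. From PM it differed by 0.14 ± 0.13 in IVM and -0.32 ± 0.12 in VVM, neither of which passed. From PM to VVM, EIF2B3 fell by 0.71 ± 0.19 (adjusted p = 0.0145) and EIF2B1 by 0.52 ± 0.15 (adjusted p = 0.0213), the latter not without PM 1, VVM 2 or VVM 3 (adjusted p up to 0.0625).

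Other start-site factors moved in both directions. EIF1AD, which resembles the scanning factor eIF1A, rose by 0.60 ± 0.16 from PM to IVM and exceeded VVM by 0.63 ± 0.16 (adjusted p = 0.0123 and 0.0271 in limma). The calls were lost without IVM 1 (adjusted p = 0.0519), in the first case, and without IVM 1, VVM 2 or VVM 4 (adjusted p up to 0.0863), in the second. EIF5, which makes eIF2 hydrolyse GTP, rose by 0.54 ± 0.18 from PM to VVM (adjusted p = 0.0376), lost without PM 1, PM 3, PM 4, VVM 1, VVM 2 or VVM 4 (adjusted p up to 0.103). Its 5 probe sets disagreed. From PM to VVM, 2 were called higher, with differences from -0.47 to 0.76, and the call was lost with the mean of the probe sets. From PM to IVM, 1 was called higher and 1 lower, from -1.96 to 1.06. Between IVM and VVM, 1 was called lower, from -1.49 to 0.47. EIF1B, a relative of EIF1, fell by 0.52 ± 0.19 to IVM (adjusted p = 0.0476), which held in 3 of 11 fits that left out an array. It was lost without PM 1, PM 2, PM 3, IVM 1, IVM 2, VVM 2, VVM 3 or VVM 4 (adjusted p up to 0.193). EIF2D fell by 0.55 ± 0.18 to VVM (adjusted p = 0.0366), lost without PM 1, PM 4, VVM 2, VVM 3 or VVM 4 (adjusted p up to 0.101). EIF1 and EIF6 passed in no comparison, with differences between -0.31 and 0.17.

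EIF5B, which joins the ribosomal subunits, was at 8.98, 8.23, 8.88 and 8.90 in PM, 9.82, 9.61 and 10.03 in IVM and 9.03, 9.60, 9.70 and 9.16 in VVM by its brightest probe set. By that probe set it rose by 1.07 ± 0.22 to IVM (adjusted p = 0.00302) and by 0.63 ± 0.20 to VVM (adjusted p = 0.0352). The other 3 did not bear out 1 direction. In IVM against PM, 2 of the 4 were called higher and 2 lower, from -1.84 to 1.27. The mean of the probe sets turned to -0.21 in IVM and -0.56 in VVM. Its call in VVM was lost without PM 2, VVM 2 or VVM 3 (adjusted p up to 0.094).

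The eIF3 subunits did not move as 1 block. Of 11 measured, 4 were higher in IVM than in VVM (EIF3D, EIF3I, EIF3J and EIF3B) and none was lower. From PM to IVM, 5 rose (EIF3D, EIF3K, EIF3I, EIF3H and EIF3J) and 1, EIF3L, fell. From PM to VVM, EIF3K and EIF3H rose while EIF3L, EIF3B and EIF3F fell. The shares called were 36.4%, 54.5% and 45.5% in that order, against 16.7%, 45.9% and 39.8% of all genes. Of the brighter genes 21.5%, 52.2% and 47.3% were called, so the counts against PM lay near that background.

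EIF3D, a subunit that can itself bind the cap of some messages, was at 10.56, 10.35, 10.38 and 10.43 in PM, 11.23, 11.38 and 11.21 in IVM and 10.64, 10.23, 10.64 and 10.82 in VVM. IVM lay above all other arrays. It exceeded PM by 0.84 ± 0.14 (adjusted p = 0.000916) and VVM by 0.69 ± 0.14 (adjusted p = 0.00917).

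EIF3K and EIF3L are neighbouring subunits at the edge of the complex, and their transcripts went opposite ways. EIF3K was at 7.38, 7.24, 7.46 and 7.47 in PM, 8.41, 8.20 and 7.61 in IVM and 8.47, 8.50, 9.21 and 8.67 in VVM, with every PM value below the rest. It rose by 1.32 ± 0.20 to VVM (adjusted p = 0.000547) and by 0.69 ± 0.21 to IVM (adjusted p = 0.0251), the latter lost without PM 1, PM 2, IVM 1 or IVM 2 (adjusted p up to 0.107). The difference from PM to IVM turned to -0.34 under the hybridization covariate. EIF3L was at 9.38, 8.86, 9.29 and 8.96 in PM, 7.51, 7.75 and 8.46 in IVM and 8.84, 8.33, 7.98 and 8.47 in VVM, with every PM value above the other groups. EIF3L fell by 1.21 ± 0.25 to IVM (adjusted p = 0.00319) and by 0.72 ± 0.23 to VVM (adjusted p = 0.0355). The fall to VVM was lost without PM 1, PM 3, PM 4, VVM 2, VVM 3 or VVM 4 (adjusted p up to 0.0953), and the differences to IVM and VVM turned to 0.25 and 0.038 with the hybridization controls as a covariate.

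EIF3I, a WD-repeat subunit, was 0.85 ± 0.19 higher in IVM than in VVM (adjusted p = 0.0159), lost without IVM 1 or IVM 2 (adjusted p up to 0.07). It rose from PM by 0.53 ± 0.19 (adjusted p = 0.047), which held in 3 of 11 fits that left out an array and not without PM 1, PM 2, PM 3, PM 4, IVM 1, IVM 2, VVM 1 or VVM 2 (adjusted p up to 0.161). Both EIF3I calls were lost with the probe sets marked as shared between transcripts left out. Its other probe set, at 0.38 for IVM minus VVM and 0.34 for IVM minus PM, was called in neither. EIF3J, a loosely bound subunit, was 0.79 ± 0.15 higher in IVM than in VVM (adjusted p = 0.00608) by its brightest probe set. Of its 4 probe sets, only 1 was called there, with differences from -0.17 to 0.79. The call was lost with the mean of the probe sets and with the hybridization covariate. Its rise from PM, 0.43 ± 0.15 (adjusted p = 0.0354), was lost without PM 1, PM 3, PM 4, IVM 1 or IVM 3 (adjusted p up to 0.122), and there 3 of its 4 probe sets were called higher and 1 lower. EIF3H rose by 0.48 ± 0.15 to IVM and 0.46 ± 0.14 to VVM (adjusted p = 0.0248 and 0.0282 in limma). Neither rise passed with centred arrays, the rise to IVM was lost without PM 1, PM 3, IVM 1 or IVM 2 (adjusted p up to 0.0966), and the rise to VVM without PM 1, PM 3, PM 4, VVM 1 or VVM 3 (adjusted p up to 0.0772). EIF3B, a core scaffold, was 0.72 ± 0.20 higher in IVM than in VVM (adjusted p = 0.0422) and fell by 0.58 ± 0.19 from PM to VVM (adjusted p = 0.0357). Those calls were lost without PM 1, PM 4, any IVM array, VVM 1, VVM 3 or VVM 4 (adjusted p up to 0.104) in the first case and without PM 1, PM 3, PM 4, VVM 1, VVM 3 or VVM 4 (adjusted p up to 0.0956) in the second. Neither remained with the mean of the 3 EIF3B probe sets. EIF3F fell by 0.45 ± 0.15 to VVM (adjusted p = 0.0375), lost without PM 1, PM 2, PM 4, VVM 1, VVM 2 or VVM 3 (adjusted p up to 0.103), and the difference turned to 0.012 with the probe sets marked as shared between transcripts left out. EIF3A, EIF3E and EIF3M passed in no comparison. Without PM 1, VVM 2 and VVM 3, no eIF3 subunit was called between IVM and VVM, and the median difference was 0.48.

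The cap-binding genes held the largest falls among the 69. EIF4E, which binds the cap and is the limiting factor of cap-dependent initiation in many cells, was at 9.46, 9.97, 10.55 and 9.23 in PM, 7.48, 7.47 and 8.14 in IVM and 6.73, 8.13, 7.00 and 6.84 in VVM. All PM values exceeded all values after maturation, and IVM and VVM overlapped. It fell by 2.10 ± 0.37 to IVM, a fold of 4.3 (adjusted p = 0.00143), and by 2.63 ± 0.35 to VVM, a fold of 6.17 (adjusted p = 0.000248). Between IVM and VVM the difference was 0.52 ± 0.37 (adjusted p = 0.408). A single probe set measured it. Both falls remained called in all 11 fits that left out an array, and the fall to IVM was not called with the hybridization controls as a covariate.

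EIF4E3, a cap-binding relative of EIF4E, was lowest in IVM. It was at 8.42, 7.58, 7.95 and 8.16 in PM, 4.99, 5.39 and 6.08 in IVM and 6.96, 7.53, 7.57 and 7.34 in VVM, and the IVM arrays lay below all others. It fell by 2.54 ± 0.26 to IVM, a fold of 5.81 (adjusted p = 5.32e-05), and the IVM minus VVM difference was -1.86 ± 0.26 (adjusted p = 0.00159). The difference of -0.68 ± 0.24 from PM to VVM missed the threshold (adjusted p = 0.0549). EIF4E2, a relative that represses translation of some messages, went the other way, at 9.37, 8.91, 9.31 and 9.18 in PM, 10.20, 9.67 and 10.04 in IVM and 10.11, 9.89, 9.82 and 9.62 in VVM. Its PM values lay below all others, with rises of 0.78 ± 0.17 to IVM (adjusted p = 0.0039) and 0.67 ± 0.15 to VVM (adjusted p = 0.00719).

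EIF4G1, the scaffold between cap and ribosome, was at 8.18, 8.19, 8.73 and 8.70 in PM, 9.62, 9.41 and 9.67 in IVM and 7.82, 9.19, 9.16 and 9.22 in VVM. IVM stood above the rest, and VVM 1 stood below every other array. It rose by 1.12 ± 0.31 from PM to IVM (adjusted p = 0.0153), which turned to -0.31 with the hybridization controls as a covariate. The differences from PM to VVM (0.40 ± 0.29) and between IVM and VVM (0.72 ± 0.31) did not pass. Without VVM 1 the former was 0.74 and passed the threshold. Its single probe set is of a kind the array maker marks as shared between transcripts.

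EIF4G3, a second scaffold, was 0.74 ± 0.15 higher in IVM than in VVM (adjusted p = 0.00952) and fell by 0.50 ± 0.14 from PM to VVM (adjusted p = 0.0187), the latter lost without PM 1, PM 2 or VVM 3 (adjusted p up to 0.0577). EIF4A2, a helicase that unwinds leaders, fell by 0.55 ± 0.15 to IVM (adjusted p = 0.014), lost without IVM 2 (adjusted p = 0.0544), and by 0.62 ± 0.14 to VVM (adjusted p = 0.00664). Its IVM difference turned to 0.19 with the hybridization covariate. EIF4ENIF1, which carries EIF4E into the nucleus, fell by 0.70 ± 0.24 to VVM (adjusted p = 0.049), which held in 3 of 11 fits that left out an array and not without PM 1, PM 4, any IVM array, VVM 1, VVM 2 or VVM 3 (adjusted p up to 0.135). EIF4G2 passed in no comparison and stayed between 12.70 and 13.17 on all arrays. The binding proteins EIF4EBP1, EIF4EBP2 and EIF4EBP3 were not analysed here.

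**Figure D4:**
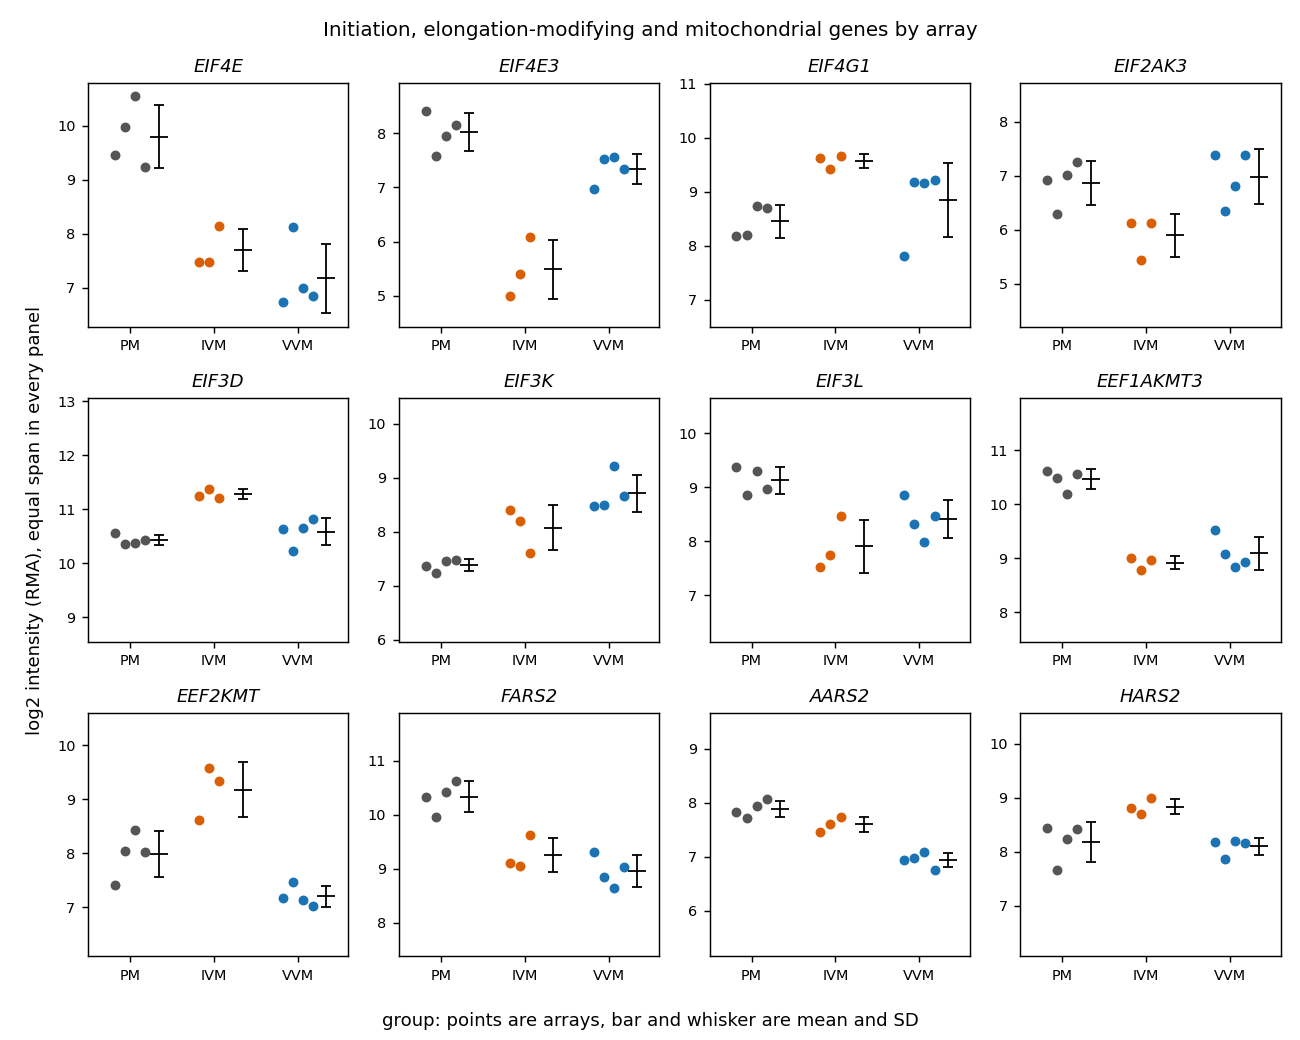
Log2 RMA intensity of 12 initiation, elongation-modifying and mitochondrial genes on each array, by group. Points are arrays, bars and whiskers are the group mean and SD, and the vertical span is equal in every panel. EIF4E and EEF1AKMT3 are lower in both matured groups than in PM, EIF4E3 is lowest in IVM, and EEF2KMT is highest in IVM.

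Of 20 other measured genes that act on initiation, 1 rose and 7 fell from PM to IVM, 1 rose and 11 fell from PM to VVM, and IVM was above VVM for 4 and below it for 3. The shares called were 40%, 60% and 35%, against 45.9%, 39.8% and 16.7% of all genes and 52.2%, 47.3% and 21.5% of the brighter genes, so the count from PM to IVM lay below the background. DDX3X, a helicase for structured leaders, fell by 2.97 ± 0.44 to IVM and was -2.28 ± 0.44 in IVM minus VVM. MKNK1, the kinase that phosphorylates EIF4E, fell by 1.78 ± 0.21 to IVM and 1.58 ± 0.20 to VVM, and PABPC4, a poly(A)-binding protein, fell by 1.75 ± 0.22 to IVM and fell by 1.89 ± 0.20 to VVM. DHX29, a scanning helicase, fell by 1.27 ± 0.19 to IVM. CPEB4 rose by 1.17 ± 0.24 to VVM and was -1.02 ± 0.26 in IVM minus VVM, where PAIP2, which displaces the poly(A)-binding protein, was -0.87 ± 0.14. ABCF2 fell by 1.21 ± 0.13 to VVM and was 0.94 ± 0.14 higher in IVM.

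Genes of mTORC1, the kinase complex that ties translation to nutrients, showed no single direction. Of 28 measured, 7 rose and 5 fell from PM to IVM, 7 rose and 9 fell from PM to VVM, and IVM was above VVM for 4 and below it for 3. The shares called were 42.9%, 57.1% and 25%, against 45.9%, 39.8% and 16.7% of all genes and 52.2%, 47.3% and 21.5% of the brighter genes, so the list's first and last counts lay near the background. SESN1 and DEPTOR, inhibitors of the pathway, rose by 1.55 ± 0.30 and 1.46 ± 0.25 to VVM and were -1.20 ± 0.32 and -1.07 ± 0.27 in IVM minus VVM. SLC38A9, an arginine sensor of the lysosome, fell by 2.16 ± 0.22 to IVM and 1.32 ± 0.20 to VVM and was -0.84 ± 0.22 in IVM minus VVM. DEPDC5, an amino acid brake, fell by 1.13 ± 0.11 and 1.32 ± 0.10. LAMTOR2 and LAMTOR4, of the lysosomal anchor, rose by 0.90 ± 0.11 and 0.97 ± 0.21 to IVM, and LAMTOR2 was 0.90 ± 0.11 higher in IVM than in VVM.

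Elongation factors showed no call between IVM and VVM. EEF2, which moves the ribosome along the message, was at 7.26, 7.13, 7.37 and 7.60 in PM, 7.85, 7.64 and 7.51 in IVM and 7.64, 8.07, 7.88 and 8.10 in VVM. Every VVM array was above every PM array, by 0.58 ± 0.14 (adjusted p = 0.0101). The rise was not called with either covariate or without PM 1, VVM 2 and VVM 3. In IVM the difference from PM was 0.32 ± 0.15 (adjusted p = 0.112). EIF5A, which helps ribosomes through difficult stretches, rose by 1.10 ± 0.30 from PM to IVM (adjusted p = 0.0145), lost without IVM 2 (adjusted p = 0.0588). Its relative EIF5A2 rose by 0.87 ± 0.26 to VVM (adjusted p = 0.0244) in its brightest probe set, where VVM 2 and VVM 3, the arrays with more leukocyte marker signal, were the highest. Without PM 2, PM 4, VVM 2 or VVM 3 (adjusted p up to 0.07) the call was lost, and its other 3 probe sets were called lower.

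EEF1D, part of the complex that recharges EEF1A with GTP, fell from 8.81, 8.20, 7.65 and 8.12 in PM to 7.00, 6.40 and 7.49 in IVM, with 7.74, 7.31, 6.94 and 7.80 in VVM. PM and IVM did not overlap. It fell by 1.23 ± 0.31 to IVM (adjusted p = 0.00999), and the difference turned to 0.26 with the hybridization controls as a covariate. EEF1E1, a partner in the synthetase complex, and EEF1A2 passed in no comparison. EEF1A1, which delivers charged tRNA to the ribosome, could be read from 4 control probe sets. The one at its 3' end was at 14.13 to 14.31 over the 11 arrays. A middle one averaged 12.96 ± 0.25 (SD) in PM, 11.81 ± 0.46 (SD) in IVM and 12.53 ± 0.40 (SD) in VVM. The pair therefore gave different pictures, and no level was called.

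Of the 4 enzymes that methylate elongation factors, EEF2KMT and EEF1AKMT3 were called. EEF2KMT, which methylates EEF2, was at 7.41, 8.05, 8.44 and 8.03 in PM, 8.61, 9.59 and 9.34 in IVM and 7.18, 7.47, 7.14 and 7.03 in VVM. All IVM values were above all others. IVM exceeded VVM by 1.97 ± 0.26, a fold of 3.93 (adjusted p = 0.00111), the largest rise among the 69 in that comparison. It rose by 1.20 ± 0.26 from PM to IVM (adjusted p = 0.0043) and fell by 0.78 ± 0.24 to VVM (adjusted p = 0.0296). The fall was lost without PM 2, PM 3, PM 4, VVM 1, VVM 3 or VVM 4 (adjusted p up to 0.0798). The dimmer EEF2KMT probe sets did not share it, at 0.18 and 0.29 from PM to VVM, neither of them called. Between IVM and VVM they differed by 0.48, not called, and 0.89, called. All 3 probe sets were called higher in IVM than in PM.

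EEF1AKMT3, which methylates EEF1A, was at 10.61, 10.48, 10.20 and 10.56 in PM, 9.01, 8.78 and 8.96 in IVM and 9.53, 9.08, 8.84 and 8.93 in VVM. PM stood above both matured groups, which overlapped. It fell by 1.54 ± 0.17 to IVM (adjusted p = 7.33e-05) and by 1.37 ± 0.16 to VVM (adjusted p = 0.000103). EEF1AKMT1 and EEF1AKMT2 passed in no comparison, with differences between -0.39 and 0.15.

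ETF1, the release factor that reads all stop codons, was at 11.19 ± 0.22 in PM, 11.12 ± 0.17 in IVM and 11.18 ± 0.17 in VVM (SD, n = 4, 3 and 4). Its groups overlapped, with differences of -0.06 ± 0.15 for IVM minus VVM, -0.06 ± 0.15 for IVM minus PM and -0.01 ± 0.14 for VVM minus PM. The errors are SE, no comparison passed, and all 3 signs turned under other settings. GSPT1, its partner, and EEF2K, the kinase that inhibits EEF2, were not analysed here.

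Translation in mitochondria has its own factors, of which 10 were measured outside the rule. From PM to IVM, 3 were higher and 3 lower: the release factor gene MTRF1 rose by 1.31 ± 0.26 and TSFM, an elongation factor, by 0.71 ± 0.24, while MRRF, which recycles ribosomes, fell by 0.97 ± 0.20 and MTIF2, an initiation factor, by 0.70 ± 0.19. In VVM relative to PM, 1 was higher and 3 lower: MTRF1 rose by 0.75 ± 0.24, and GFM2, TUFM and GUF1 fell by 0.87 ± 0.22, 0.68 ± 0.14 and 0.59 ± 0.19. Between IVM and VVM, 1 was called, GFM1, a translocation factor, at 0.62 ± 0.18 higher in IVM. The shares called were 60%, 40% and 10%, against 45.9%, 39.8% and 16.7% of all genes.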

How the data were processed

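RNA of 11 cumulus cell samples was measured, 1 array each (4 PM, 3 IVM, 4 VVM), grouped by sample title. The deposited values are intensity on a linear scale, made by the authors with Affymetrix Expression Console and RMA, per the submitters' processing notes, which here carry no versions. RMA gives all arrays nearly 1 distribution, so a shift shared by most genes cannot be seen. Log2 was taken with no pseudocount. Of 52865 probe sets, 99 control probe sets were left out. Symbols came from the platform's annotation; 24956 probe sets carried 1 symbol, 361 several and 27449 none, and the gene identifiers of all 70 genes described were found in RefSeq. A gene was read from its single-symbol probe set with the highest mean. No sequences or positions were used, and signal over background was not analysed here.

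limma 3.58.1 (R 4.3.3) fitted 3 group means over 52766 probe sets with empirical Bayes moderation (8 residual and 3.30 prior degrees of freedom), two-sided, with Benjamini-Hochberg adjustment per comparison. The fit was tested on simulated data. Replicate numbers in the titles were checked for pairing and not used. The genes, role groups and lists were chosen with earlier results of these data known, and lists were described by counts and medians, with no set test. Named in each comparison were the 10 largest called rises and falls among the 69, a fixed set (EIF2 kinases, EIF2S1, EIF2B5, EIF4E and its binding proteins, EIF4G1, EEF2, EEF2K, ETF1, GSPT1), up to 4 called genes per further list, and called genes of each role group. The alternatives changed the normalization, probe set choice, filters, thresholds, prior, weights, covariates and arrays used.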

Additional observations from a re-analysis of the deposited data

Results flagged for a closer look

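Single arrays were compared within the groups of 4 for 35 of the 69 genes, which made 70 groups. Of these, 2 held an array far from the others, and chance alone gives about 1 in 20 groups. EIF4G1 was at 7.82 in VVM 1, where the nearest VVM array was at 9.16. EIF5B was at 8.23 in PM 2, where the nearest PM array was at 8.88. The cause was not tested.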

How the results depend on the processing

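The counts of called genes were 21, 29 and 32 for IVM and VVM, IVM and PM, and VVM and PM. They became 6, 13 and 5 with a 2-fold minimum and 11, 15 and 14 at an adjusted p under 0.01. With the 3' to 5' excess as a covariate IVM against PM and VVM against PM gave 10 and 10, with the hybridization controls as a covariate the 3 counts were 5, 0 and 4 (unadjusted p under 0.05 in limma: 30, 11 and 13), and without PM 1, VVM 2 and VVM 3 IVM against VVM and VVM against PM gave 9 and 11. Over all genes, the fit with the hybridization controls called 370, 3 and 1664 in the 3 comparisons. Leaving out 1 array gave 15 to 20, 21 to 32 and 20 to 35, the lowest VVM against PM counts being 20 without VVM 3 and 21 without PM 4. All other alternatives stayed within 1.5 times of these counts. Of the calls, 12 of 21, 16 of 29 and 17 of 32 remained called in all 11 fits that left out an array. EIF4G1 has no value with shared probe sets left out. With the replicate number as a block the counts were 18, 25 and 27, but residuals of same-numbered arrays correlated between -0.107 and 0.101 over 10 pairs, and 4 of 11 arrays correlated best with their own number, so the samples share only a number.

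Of the called differences and those of the fixed set of genes, these changed sign, and the cause was not tested. With centred arrays EIF2B5 was -0.012 in IVM against PM. After quantile normalization ETF1 was 0.015, 0.13 and 0.11 in the 3 comparisons and EIF2S1 0.18 in IVM against PM, and after cyclic loess ETF1 was 0.14 and 0.17 against PM (IVM, VVM) and EIF2S1 0.12 in IVM. With the mean of probe sets EIF2S1 was -0.30, 0.057 and 0.35, EIF5B -0.21 and -0.56 against PM (IVM, VVM) and EIF5A2 -0.14 in VVM against PM. With array weights EIF2AK3 was -0.0072 and ETF1 0.021 in VVM against PM. With the hybridization controls as a covariate, in IVM against PM EIF4G1 was -0.31, EEF1D 0.26, EIF3L 0.25, FARS2 0.14, EIF2AK3 0.14, EIF2S1 0.99, EIF2B5 -0.090, EEF2 -0.16, EIF3K -0.34 and EIF4A2 0.19, and in VVM against PM EIF2S1 was 0.21, EIF4G1 -0.33 and EIF3L 0.038. EIF3F was 0.012 in VVM against PM with shared probe sets left out. EIF4G1 was -0.021 in VVM against PM without PM 1, VVM 2 and VVM 3. Over the fits that left out 1 array, ETF1 ranged from -0.099 to 0.063 in VVM against PM (above 0 without PM 2, PM 3, VVM 3 or VVM 4), from -0.16 to 0.032 in IVM against PM (above 0 without PM 2 or IVM 2) and from -0.13 to 0.040 in IVM against VVM (above 0 without IVM 2). EIF2AK3 ranged from -0.082 to 0.32 in VVM against PM (below 0 without PM 2, VVM 1 or VVM 4), and EIF2S1 from -0.19 to 0.13 in IVM against PM (above 0 without IVM 2).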
